A study of Mus musculus with 31 samples.

Results

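Olfactory nerve of the olfactory mucosa was compared with trigeminal nerve in E16.5 mouse embryos (E, embryonic day), over the 17800 genes that passed a filter on low counts, out of 47729 listed. The comparison used 7 of the 31 RNA-seq libraries of the series, 4 of olfactory nerve and 3 of trigeminal nerve, and it addressed how olfactory ensheathing cells (OECs) differ from Schwann cells. Both groups, untreated, came from embryos with the Sox10:H2BVenus transgene, in which Sox10 regulatory DNA on a bacterial artificial chromosome drives a fluorescent nuclear protein, so that glia were visible in frozen sections while pieces of nerve were excised with a laser. The trigeminal pieces were taken from branches close to the olfactory system, and each library pooled pieces from several sections. Each library of a group came from a different embryo. By the study's account the sections used for trigeminal nerve had also given olfactory pieces, so the nerves share embryos, but the labels do not tie libraries to embryos, and the tests treat the 7 libraries as independent. A piece held every cell under the laser, including axons, connective tissue and vessels, and in such bulk samples fewer cells of a type and less RNA per cell cannot be told apart.

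Both nerves are ensheathed by glia of neural crest origin. OECs wrap whole bundles of thin, unmyelinated axons of olfactory sensory neurons and accompany them from the nasal epithelium to the olfactory bulb, whereas Schwann cells sort the axons of the trigeminal ganglion and myelinate the larger ones individually. In Schwann cells, Sox10 acts with Pou3f1 and then Egr2 to switch on the genes of peripheral myelin, and signals from the axon, such as neuregulin acting through the receptors Erbb2 and Erbb3, sustain the lineage.

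The olfactory nerve libraries held 14914541 to 16291260 counts and the trigeminal nerve libraries 30221586 to 32508725, so that 3 counts corresponded to 0.181 and 0.103 counts per 1e6 counts (CPM). Levels below are CPM after TMM scaling by edgeR, in the order of replicates 1 to 4 for olfactory nerve and 1 to 3 for trigeminal nerve. Spearman correlations of CPM across genes were 0.968 to 0.985 within olfactory nerve, 0.981 to 0.988 within trigeminal nerve and 0.901 to 0.935 between the nerves. Mitochondrial transcripts summed to 4923 to 7125 CPM in olfactory nerve and to 7319 to 10512 CPM in trigeminal nerve, without overlap, and the part of this difference in the results was not tested. Xist was detected with over 3 counts in 1 of 4 olfactory nerve libraries (replicate 3) and 1 of 3 trigeminal nerve libraries (replicate 2), the same libraries in which Y-linked genes were at or near 0.

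Genes were tested with the quasi-likelihood method of edgeR, those below an adjusted p (Benjamini-Hochberg) of 0.05 being termed called, and log2 fold changes are of olfactory over trigeminal nerve, each with its standard error (SE) where given. Of the 17800 genes, 4788 were called, 2702 higher and 2086 lower in olfactory nerve. The background share of called genes was therefore 26.9% in either direction, 15.2% higher and 11.7% lower, against which the counts of each gene list below are to be read. Absence of overlap was common too. All olfactory nerve libraries lay above all trigeminal nerve libraries in 3307 of the 17800 genes, and below them in 2824. Called genes with a log2 fold change of at least 3 in size were mostly higher in olfactory nerve (952 of 1170, against 218 lower). That count had no floor on level. Among 1520 named genes called at any fold change, with at least 50 CPM in the higher nerve and no overlap between libraries, the split was opposite. Of these, 471 were higher and 1049 lower in olfactory nerve. The split of calls rested in part on the scaling, since with total count in place of TMM the median of all genes moved from 0.0263 to 0.223 and 73.8% of calls were higher, in place of 56.4%. A fit of all 31 libraries is cited below for some genes. It includes libraries of earlier stages, some of which did not match their labels in an earlier analysis of these data.

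**Figure D1:**
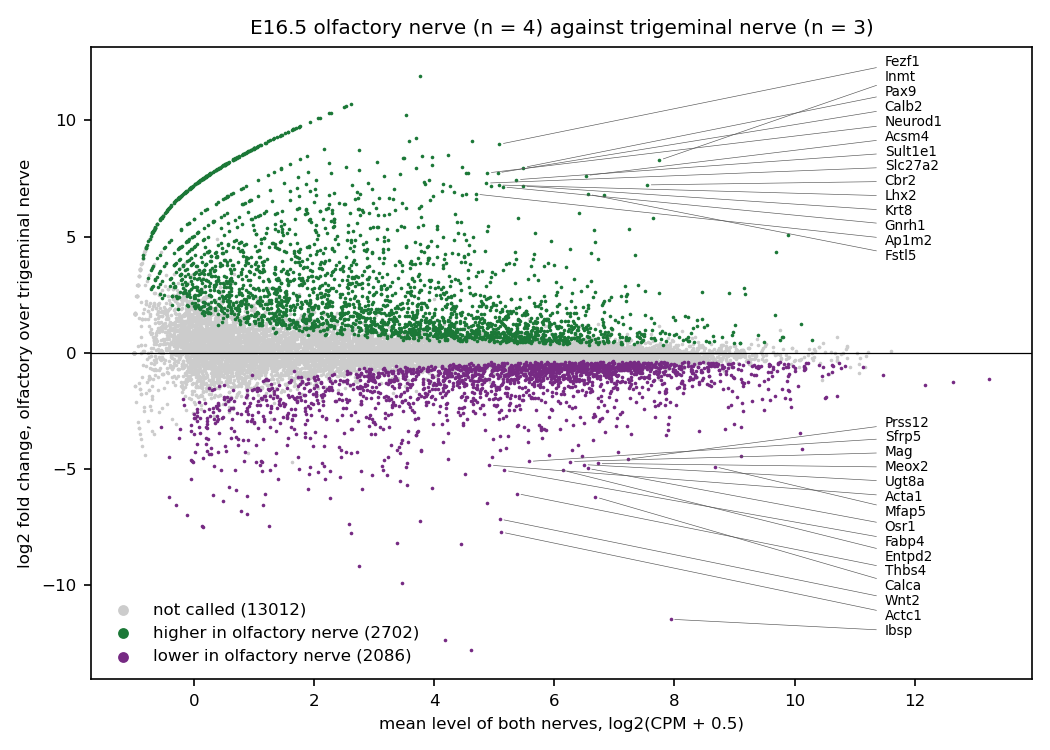
Log2 fold change of olfactory over trigeminal nerve (vertical axis) against the mean level in both nerves as log2(CPM + 0.5) (horizontal axis), 1 point per gene for the 17800 genes tested; the labelled genes were among the 15 with the largest changes in each direction, of called genes of at least 50 CPM in the higher nerve without overlap between libraries. The arcs of points at upper left are genes with 0 or a few counts in trigeminal nerve.

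Sox10 (ENSMUSG00000033006, chromosome 15 from 79154908 to 79165240 in GRCm38), the transcription factor gene whose reporter guided the dissection, was detected in every library, at 95.2, 176, 121 and 105 CPM in olfactory nerve and 322, 281 and 349 CPM in trigeminal nerve. All olfactory nerve libraries lay below all trigeminal nerve libraries, with a log2 fold change of -1.35 ± 0.21 (SE, adjusted p = 0.000114) in edgeR's test. A list of 24 genes was taken as shared by neural crest glia. Some members are not restricted to glia, and the study states that mouse OECs do not express Sox2, another member. Of the 24, 12 were lower and 2 higher, where 11.7% and 15.2% of all genes tested were, and 10 were not called. The median was -0.74, beside 0.0263 for all genes tested. Without olfactory nerve replicate 1, 5 of the 24 were called higher. Several receptor and adhesion genes were lower by about as much as Sox10. Erbb3, the neuregulin receptor, had 65.5, 109.6, 93.7 and 68.9 CPM against 173, 222 and 188 CPM, a log2 fold change of -1.20 (adjusted p = 0.000326). Ednrb, the endothelin receptor of neural crest cells, had -1.28 (adjusted p = 0.000396), the cadherin gene Cdh19, a marker of Schwann cell precursors, -1.68 (adjusted p = 5.19e-05), and the laminin receptor subunit gene Itga6 -1.36 (adjusted p = 1.52e-05). For these genes the libraries of the 2 nerves did not overlap.

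A second set of glial identity genes was lower by far more. Ngfr, the low-affinity neurotrophin receptor, had 9.13, 15.3, 8.71 and 8.76 CPM in olfactory nerve and 92.0, 111 and 113 CPM in trigeminal nerve, at -3.33 ± 0.24 (SE, adjusted p = 5.77e-08). Gfra3, the co-receptor for artemin, had 81.8, 88.3, 95.6 and 73.1 CPM and 867, 769 and 859 CPM, at -3.30 ± 0.58 (SE, adjusted p = 0.000367). In both genes the highest olfactory nerve library stayed well below the lowest trigeminal nerve library. Cadm4, whose product on the Schwann cell surface contacts the axon, was lower at -3.38 (adjusted p = 3.11e-06).

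The largest difference in the list went the other way. Fabp7 (ENSMUSG00000019874, chromosome 10 from 57784881 to 57788450), a fatty acid-binding protein of early glia, had 1465, 2680.04, 1100.5 and 1063 CPM in olfactory nerve and 87.1, 67.2 and 80.8 CPM in trigeminal nerve. Every olfactory nerve library was over 10 times any trigeminal nerve library, and the log2 fold change was 4.33 ± 0.33 (SE, adjusted p = 7.52e-08). Tfap2a, a neural crest transcription factor that epithelia and facial mesenchyme also express, was the other gene higher in olfactory nerve, at 3.11 (adjusted p = 0.00054), with 8.46, 2.36, 8.39 and 5.58 CPM against 0.241, 0.855 and 1.04 CPM. S100b and Sox9 were among the genes that did not pass the threshold. S100b, a calcium-binding protein of mature glia, had 73.6 to 145 CPM and 59.0 to 87.4 CPM, at 0.43 (adjusted p = 0.167), and was called higher with total-count scaling (0.63, adjusted p = 0.0459). Sox9, which in the trunk precedes Sox10 in the crest and also acts in cartilage, had 0.87 (adjusted p = 0.0562), and it was called higher without olfactory nerve replicate 1, at 1.07 (adjusted p = 0.0169).

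**Figure D2:**
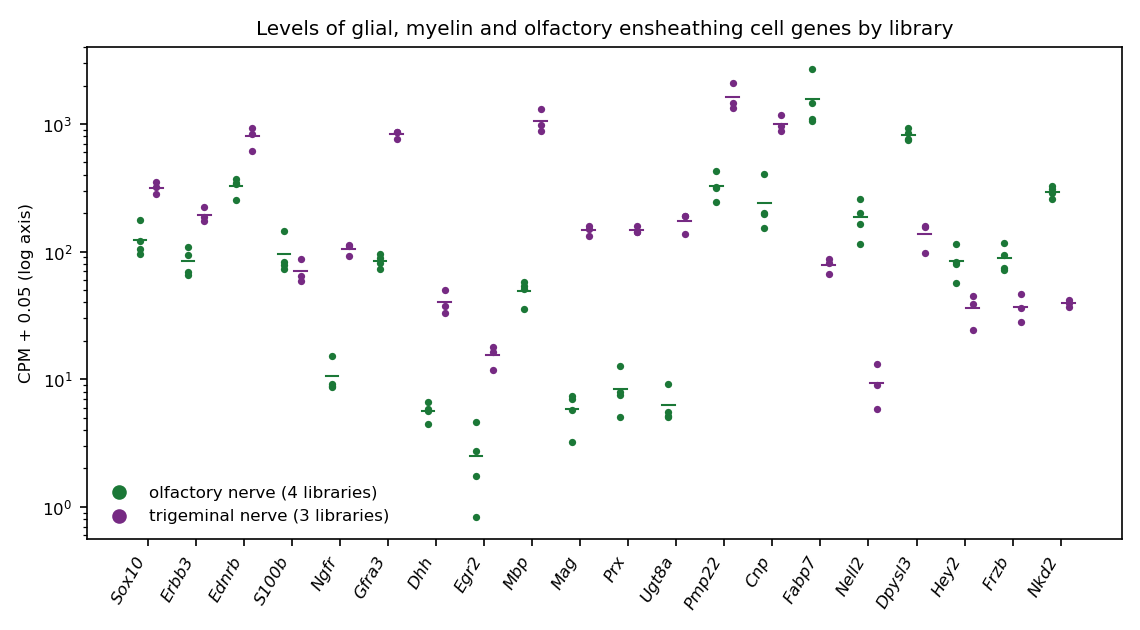
Levels of 20 glial, myelin and OEC genes as CPM + 0.05 on a log axis, with 1 point per library (green, 4 olfactory nerve; purple, 3 trigeminal nerve) and a bar at the mean of each nerve. The myelin genes from Mbp to Cnp lie lower in every olfactory nerve library, and Fabp7, Nell2, Dpysl3 and Nkd2 lie higher.

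Since Sox10 itself differed between the nerves, 87 glial genes were also compared after subtracting, in each library, the log2(CPM + 0.5) of Sox10 from that of the gene, with an exact two-sided permutation test over the 7 libraries. The test has 35 splits, its smallest possible p is 0.0286, and after Benjamini-Hochberg adjustment over the 87 genes 57 had an adjusted p under 0.05, the lowest value being 0.0436. All olfactory nerve libraries lay below all trigeminal nerve libraries for 24 of the 87 genes, where 1.55% of all genes tested did so on the same measure. They lay above for 43 genes, but 77.8% of all genes tested did so as well, a share that the glial genes did not reach. Differences of Erbb3 (0.16), Ednrb (0.11), Itga6 (0.0074) and Cdh19 (-0.26) were near 0 relative to Sox10 and the libraries overlapped (adjusted p from the permutation test 0.414 to 0.943). Myelin genes stayed lower, including Ugt8a (-3.34), Mag (-3.23), Mbp (-3.03) and Prx (-2.77), as did Ngfr (-1.92), Gfra3 (-1.91) and the in situ hybridization marker Sfrp5 (-3.33), each with an adjusted p of 0.0436 in that exact test. The same p was found for differences in the other direction in S100b (1.78), Fabp7 (5.61) and Nell2 (5.64).

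**Figure D3:**
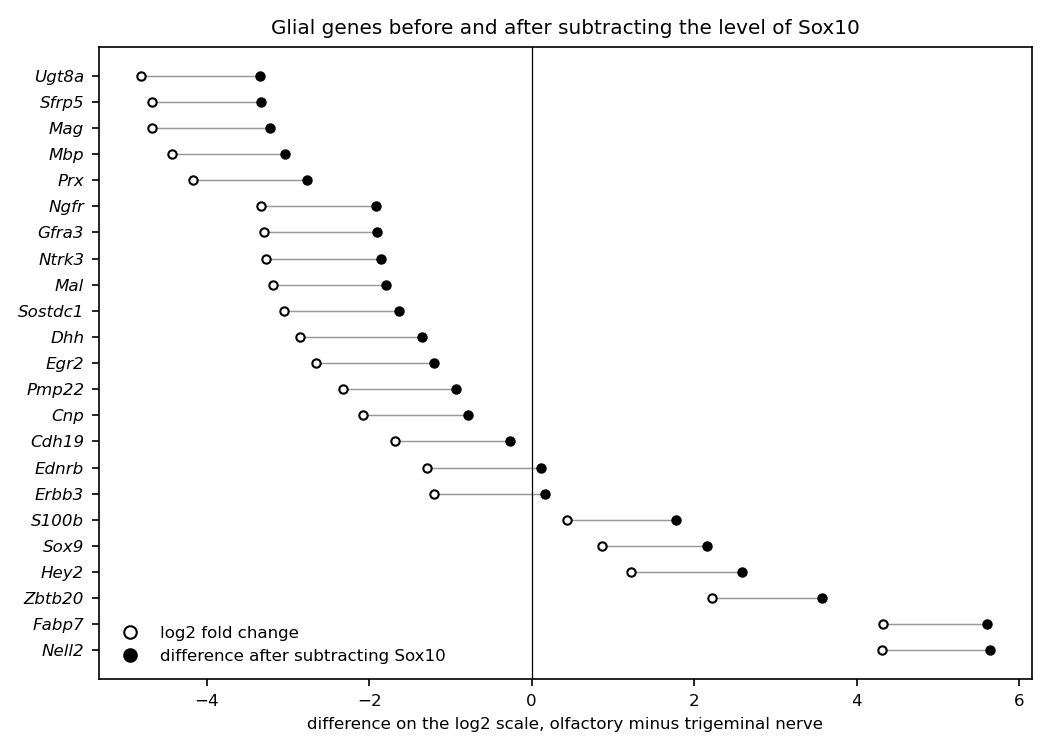
Difference between olfactory and trigeminal nerve on the log2 scale (horizontal axis) for 23 glial genes, before (open circles, log2 fold change of the edgeR fit) and after (filled circles) subtracting the level of Sox10 in each library. Erbb3, Ednrb and Cdh19 move close to 0, while myelin genes at the top remain below 0.

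Of 18 genes for transcription regulators and signals of the Schwann cell lineage, 12 were lower in olfactory nerve, 0 higher and 6 not called, with a median of -0.93. Over all alternative settings the number of lower genes ran from 8 to 13. Egr2 (ENSMUSG00000037868, chromosome 10 from 67535475 to 67542188), the zinc finger factor required for myelination, had 1.69, 4.54, 2.71 and 0.781 CPM in olfactory nerve and 11.8, 17.9 and 16.4 CPM in trigeminal nerve, at -2.66 ± 0.46 (SE, adjusted p = 0.000321). Pou3f1, the POU factor of promyelinating Schwann cells, had 0, 0.363, 0.0645 and 0.0558 CPM against 3.41, 1.61 and 2.39 CPM (adjusted p = 0.00156, and 0.0784 in a fit of all 31 libraries). Its mean in olfactory nerve was under the level of 3 counts, so no fold change is given. The nerves did not overlap in either gene. Dhh, the hedgehog ligand by which Schwann cells organise the perineurium, had 5.74, 6.54, 5.55 and 4.41 CPM and 37.4, 33.3 and 49.8 CPM, at -2.85 ± 0.26 (SE, adjusted p = 6.27e-07), and Ntrk3, the receptor for neurotrophin-3, had -3.27 ± 0.33 (SE, adjusted p = 1.86e-06). Adgrg6, the adhesion receptor that starts myelination, was lower at -1.20 (adjusted p = 0.000114), and Hbegf, an epidermal growth factor family ligand, at -1.27 (adjusted p = 3.82e-05). Relative to Sox10, Adgrg6 (0.19) and Hbegf (0.13) overlapped between the nerves, with adjusted p of 0.528 and 0.546 in the exact permutation test, whereas Dhh (-1.35), Egr2 (-1.20) and Ntrk3 (-1.85) did not overlap.

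Of 23 peripheral myelin genes, 15 were lower in olfactory nerve, 2 higher, 5 not called and 1 filtered out, and the median was -2.27. Mbp, myelin basic protein, had 50.5, 35.1, 53.4 and 57.3 CPM in olfactory nerve and 1308, 875 and 989 CPM in trigeminal nerve, at -4.43 ± 0.26 (SE, adjusted p = 7.75e-09). No olfactory nerve library came near any trigeminal nerve library. Mag, the adhesion molecule facing the axon, had 5.68, 7.33, 6.91 and 3.18 CPM against 159, 133 and 149 CPM (-4.67 ± 0.33, SE, adjusted p = 4.62e-08), and Prx, periaxin of the outer Schwann cell membrane, 5.02, 7.45, 12.7 and 7.87 CPM against 142, 159 and 143 CPM (-4.17 ± 0.27, SE, adjusted p = 2.16e-08). Ugt8a, which makes the myelin lipid galactocerebroside, had 5.50, 9.09, 4.97 and 5.13 CPM and 191, 189.7 and 138 CPM, at -4.81 ± 0.31 (SE, adjusted p = 1.59e-08). These genes too were separated in every library.

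Pmp22 and Cnp, which premyelinating glia also use, differed less than Mbp, Mag, Prx and Ugt8a. Pmp22 had 323, 429.6, 313 and 243 CPM against 2092, 1337 and 1464 CPM, at -2.32 ± 0.18 (SE, adjusted p = 1.09e-07), and Cnp, an enzyme of uncompacted myelin, 201, 402, 198 and 152 CPM against 1179, 876 and 969 CPM, at -2.08 ± 0.24 (SE, adjusted p = 7.07e-06). Both remained clearly detected in olfactory nerve. Mal, a proteolipid of raft membranes, was lower at -3.19 (adjusted p = 4.18e-08), Gal3st1, which adds sulfate to galactocerebroside, at -2.25 (adjusted p = 1.92e-05), and Gjc3, a connexin, at -2.07 (adjusted p = 1.53e-05). Cldn19, the claudin of Schwann cell tight junctions, had 0, 0.242, 0 and 0 CPM in olfactory nerve and 13.4, 9.89 and 9.41 CPM in trigeminal nerve (adjusted p = 1.77e-06), and Fa2h, which hydroxylates myelin lipids, 0.0604, 0, 0 and 0 CPM and 4.61, 3.90 and 2.73 CPM (adjusted p = 2.34e-05). With so few counts in olfactory nerve no fold change is given for these 2 genes. The exceptions were Ncmap, a noncompact myelin protein, higher at 3.35 ± 0.71 (SE, adjusted p = 0.00172) with 3.93, 27.7, 4.78 and 10.4 CPM against 1.52, 0.958 and 0.969 CPM, and Pllp, plasmolipin, at 1.42 (adjusted p = 0.0144). Pllp was not called without trigeminal nerve replicate 2 (1.20, adjusted p = 0.0703) or replicate 3 (1.34, adjusted p = 0.0557). Epithelia also express Pllp, and the epithelial marker list was higher in all olfactory nerve libraries, at 1005, 482, 563 and 855 CPM summed over its genes, against 132, 119.97 and 127 CPM, and its part in the result was not tested.

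The sequences upstream of 4 of the lower myelin genes are shown because Sox10 and Egr2 are known to act on myelin genes. Each run is the 250 bases before the gene's most upstream start in the table, 5′ to 3′ on the gene's strand, from RefSeq on GRCm38.p6, at chr3:125938653-125938902 (minus strand) for Ugt8a, chr7:30914923-30915172 (minus) for Mag, chr7:27499074-27499323 (plus) for Prx and chr2:127656696-127656945 (minus) for Mal, where no annotated exon lies. Capitals mark the letters ACAAAG or ACAATG, which SOX factors recognise, or GTGGGNG, which EGR factors recognise, on either strand.
Ugt8a: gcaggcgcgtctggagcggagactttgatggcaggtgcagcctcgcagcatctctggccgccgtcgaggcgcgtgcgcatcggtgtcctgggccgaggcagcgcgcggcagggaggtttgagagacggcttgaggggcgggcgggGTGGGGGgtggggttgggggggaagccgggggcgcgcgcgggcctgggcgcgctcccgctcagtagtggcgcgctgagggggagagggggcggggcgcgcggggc
Mag: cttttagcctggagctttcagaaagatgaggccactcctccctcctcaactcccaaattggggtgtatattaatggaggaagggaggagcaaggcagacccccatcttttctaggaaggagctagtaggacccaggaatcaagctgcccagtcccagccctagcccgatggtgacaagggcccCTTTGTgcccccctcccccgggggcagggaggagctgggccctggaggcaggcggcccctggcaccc
Prx: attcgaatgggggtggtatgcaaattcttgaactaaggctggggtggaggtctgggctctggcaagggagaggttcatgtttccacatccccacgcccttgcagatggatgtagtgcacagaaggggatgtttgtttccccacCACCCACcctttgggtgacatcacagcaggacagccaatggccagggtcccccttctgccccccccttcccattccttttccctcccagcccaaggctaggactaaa
Mal: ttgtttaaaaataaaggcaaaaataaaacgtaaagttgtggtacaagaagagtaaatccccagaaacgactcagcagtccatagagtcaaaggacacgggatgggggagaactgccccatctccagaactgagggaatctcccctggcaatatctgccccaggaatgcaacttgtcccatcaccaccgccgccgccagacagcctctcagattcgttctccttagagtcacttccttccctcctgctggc
The Ugt8a window held an EGR match with its first base at -105 from the start, the Prx window an EGR match at -107, the Mag window a SOX match at -67 and the Mal window neither. The windows of Cnp, Gal3st1, Gjc3 and Pmp22 were searched as well. Gal3st1 held a match of each kind, Gjc3 an EGR match and Pmp22 neither. Cnp, whose window contains an annotated exon, held a SOX match. Of 32851 upstream windows of the same length, 25.2% held the SOX letters and 28.1% the EGR letters. A link between these matches and the levels was not tested.

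The study placed genes in OECs or Schwann cells by in situ hybridization and chose those genes on these libraries, so their direction here is not independent evidence. Of 9 genes it assigned to all OECs but not trigeminal Schwann cells, 6 were higher in olfactory nerve, 0 lower and 3 not called, with a median of 1.22. Nell2 (ENSMUSG00000022454, chromosome 15 from 95075230 to 95528559), a secreted axon repellent, had 201, 259, 166 and 116 CPM and 5.79, 13.1 and 9.03 CPM, at 4.31 ± 0.34 (SE, adjusted p = 1.06e-07). The lowest olfactory nerve library was far above the highest trigeminal nerve library. Dpysl3, a cytoskeletal regulator that growing neurons also express, had 759, 749.6, 856 and 930.3 CPM and 97.5, 155 and 159 CPM, at 2.59 ± 0.25 (SE, adjusted p = 1.05e-06). Adgrg1, an adhesion receptor, was higher at 1.64 (adjusted p = 0.00038), Hey2, a Notch-responsive repressor, at 1.22 (adjusted p = 0.000478) and Sema6a, a transmembrane semaphorin, at 1.15 (adjusted p = 0.000181), again without overlap.

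Ptprz1, Ptn and Heyl were not called between the nerves. Ptprz1, a receptor phosphatase, had 46.4, 88.7, 75.9 and 59.3 CPM in olfactory nerve and 86.4, 104 and 84.1 CPM in trigeminal nerve, at -0.44 ± 0.17 (SE, adjusted p = 0.0734), and without olfactory nerve replicate 2 it was called lower, at -0.60 (adjusted p = 0.0135). Its ligand gene Ptn had 1391, 2516, 1269 and 1307 CPM and 1392, 1244 and 1017 CPM, at 0.41 ± 0.22 (SE, adjusted p = 0.189), and was called higher with total-count scaling (0.61, adjusted p = 0.0363). Heyl had -0.25 ± 0.23 (SE, adjusted p = 0.452). The libraries of the 2 nerves overlapped in each of the 3 genes. Fibroblasts and vascular cells also express Ptn and Heyl, and the fibroblast list summed to 21765, 18996, 23856 and 15608 CPM in olfactory nerve and 37798, 39726 and 34524 CPM in trigeminal nerve, whose part in these values was not tested. Relative to Sox10, differences were 0.91 for Ptprz1, 1.75 for Ptn and 1.15 for Heyl, each with an adjusted p of 0.0436 in the exact permutation test and in the direction of most genes on that measure.

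Of 9 genes assigned to OECs of the olfactory nerve layer (ONL), the sheet of glia around the olfactory bulb, 7 were higher in olfactory nerve of the mucosa than in trigeminal nerve, 0 lower and 2 not called, with a median of 1.76. The study's in situ hybridization did not find these genes in mucosal OECs, except Frzb in a few of them. Which cells gave the levels in olfactory nerve was not tested. Nkd2, an antagonist of Wnt signalling, had 287, 256, 327 and 308 CPM against 39.7, 36.5 and 41.6 CPM, at 2.91 ± 0.23 (SE, adjusted p = 1.22e-07). Npy, a neuropeptide, had 56.6, 25.7, 31.9 and 34.1 CPM against 3.31, 6.43 and 7.44 CPM, at 2.69 ± 0.36 (SE, adjusted p = 2.29e-05), and Lypd6, a membrane protein that promotes Wnt signalling, 65.8, 33.1, 69.7 and 52.7 CPM against 9.13, 10.5 and 11.3 CPM, at 2.43 ± 0.26 (SE, adjusted p = 2.83e-06). All olfactory nerve libraries were higher in these 3 genes. Frzb, a secreted Wnt inhibitor, was higher at 1.27 (adjusted p = 0.000376), while Wif1, another, overlapped between the nerves (12.6 to 67.1 against 7.56 to 17.1 CPM) and was called at 1.68 (adjusted p = 0.00436). The study's in situ hybridization also placed Wif1 and Nkd2 in mesenchyme beside the epithelium, and the part of mesenchyme in their levels here was not tested. Prss56, a secreted protease, also overlapped, with 29.7, 3.21, 14.3 and 12.9 CPM against 0.138, 3.97 and 1.83 CPM, at 2.92 (adjusted p = 0.00444). Vtn, vitronectin, had 1.87, 136, 2.0 and 26.3 CPM in olfactory nerve, where replicate 2 was highest, and 21.8, 17.3 and 16.7 CPM in trigeminal nerve, and its log2 fold change went from 1.17 (adjusted p = 0.362) to -0.87 (adjusted p = 0.346) without that replicate. Ptgds, prostaglandin D synthase, was not called either (0.73, adjusted p = 0.345) and was -0.072 (adjusted p = 0.934) without the same replicate. In a fit of all 31 libraries, 3 of the 9 genes were called higher.

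All 4 called genes of the 5 assigned to mucosal OECs and Schwann cells were lower in olfactory nerve, with a median of -3.04. Sfrp5 (ENSMUSG00000018822, chromosome 19 from 42197971 to 42202252), a secreted Wnt inhibitor, had 1.93, 7.75, 1.42 and 3.18 CPM against 77.1, 85.1 and 111 CPM, at -4.67 ± 0.46 (SE, adjusted p = 1.4e-06). Sostdc1, an inhibitor of both Wnt and Bmp ligands, had 118, 110.2, 108 and 100.5 CPM against 1134, 787 and 784 CPM, at -3.04 ± 0.47 (SE, adjusted p = 0.00011), and Sema3b, a secreted semaphorin, 49.9, 74.1, 50.1 and 39.6 CPM against 378, 332 and 361 CPM, at -2.74 ± 0.22 (SE, adjusted p = 1.6e-07). In these 3 genes the nerves were separated, and the levels relative to Sox10 were lower too (among them -1.63 for Sostdc1 and -1.38 for Sema3b). Hes1, a Notch effector, was the gene not called (-0.50, adjusted p = 0.3).

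Of 7 genes assigned to all OECs and Schwann cells, 1 was higher, 2 lower and 4 not called, with a median of -0.27. Zbtb20, a zinc finger repressor, had 173, 326, 225 and 238 CPM in olfactory nerve and 39.4, 59.5 and 56.4 CPM in trigeminal nerve, at 2.22 ± 0.25 (SE, adjusted p = 4.51e-06). The lower genes were Sox10 and Fyn, a kinase, at -0.38 (adjusted p = 0.0422), a call that was lost in 8 settings that kept every library (adjusted p 0.0573 to 0.522) and in 5 of 7 fits without a single library (olfactory nerve replicate 1, 3 or 4, trigeminal nerve replicate 2 or 3; adjusted p 0.0714 to 0.121). Mmd2 (-0.22, adjusted p = 0.639) and Cntn1 (-0.27, adjusted p = 0.448), a cell adhesion molecule, overlapped.

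Genes of olfactory sensory neurons were higher in olfactory nerve, as 19 of 28 were called higher, 1 lower and 8 not called, with a median of 3.79. Omp, the marker of mature olfactory neurons, had 47.1, 43.7, 23.1 and 42.0 CPM against 0.275, 0.479 and 1.11 CPM, at 5.96 ± 0.44 (SE, adjusted p = 6.07e-08), and Gng8, a G protein subunit of immature olfactory neurons, 45.0, 40.5, 37.0 and 72.9 CPM against 11.4, 7.59 and 9.65 CPM, at 2.35 ± 0.29 (SE, adjusted p = 9.51e-06). Rtp1, which carries odorant receptors to the cell surface, had 46.6, 32.8, 37.8 and 76.9 CPM against 0, 0.239 and 0 CPM (adjusted p = 1.83e-05). Replicate 3 was the lowest olfactory nerve library for Omp and Gng8. For transduction genes, Gnal, the olfactory G protein, was higher at 2.31 (adjusted p = 2.48e-05), and Cnga2, the cyclic nucleotide-gated channel, had 34.3, 20.4, 19.4 and 35.6 CPM against 0, 0.137 and 0.346 CPM (adjusted p = 2.27e-06). The channel genes Ano2 and Cnga4 had no count in any trigeminal nerve library and 12.6, 5.27, 7.87 and 15.3 CPM and 3.14, 5.82, 1.23 and 2.96 CPM in olfactory nerve, which is at least 99.4-fold and 31.8-fold higher, taking 3 counts per library as the floor. Lhx2, a homeobox gene required for olfactory neurons to form, had 66.9, 39.3, 48.2 and 109 CPM against 0, 0.992 and 0.311 CPM, at 7.22 ± 0.82 (SE, adjusted p = 5.13e-06), and Calb2, calretinin, 60.6, 63.6, 43.6 and 93.4 CPM against 0.275, 0.239 and 0.381 CPM, at 7.74 ± 0.50 (SE, adjusted p = 1.73e-08). Both genes were separated in every library. Adcy3 (0.48, adjusted p = 0.16) and Ebf1 (0.48, adjusted p = 0.263), which many other cells express, were not called. Ncam2, an adhesion molecule of olfactory axons, was called lower at -0.70 (adjusted p = 0.0406), but not without olfactory nerve replicate 1 (adjusted p = 0.111), olfactory nerve replicate 2 (0.109) or trigeminal nerve replicate 2 (0.156), nor in 5 settings that kept every library (0.0578 to 0.229).

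Pan-neuronal genes showed the same direction, with 16 of 22 higher, 1 lower and 5 not called and a median of 2.52. Tubb3, neuronal beta-tubulin, had 187, 147, 168 and 285 CPM in olfactory nerve and 4.99, 5.44 and 4.77 CPM in trigeminal nerve, at 5.28 ± 0.78 (SE, adjusted p = 6.69e-05). Stmn2, a tubulin-binding protein of axons, had 275, 226, 181 and 326 CPM and 30.9, 49.5 and 49.6 CPM, at 2.54 ± 0.53 (SE, adjusted p = 0.00166), and Elavl4, a neuronal RNA-binding protein, 192, 89.8, 129 and 255 CPM and 2.20, 3.01 and 2.42 CPM, at 6.03 ± 0.56 (SE, adjusted p = 6.41e-07). These 3 genes were separated in every library. Gap43 (0.48, adjusted p = 0.521) and Stmn1 (0.27, adjusted p = 0.295), which glia and dividing cells express too, overlapped. The lower gene was Nefm, the medium neurofilament of large axons, with 0.423, 0.363, 1.36 and 0.391 CPM against 2.51, 4.48 and 2.73 CPM, at -2.36 ± 0.41 (SE, adjusted p = 0.000327).

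Of 19 genes of trigeminal sensory neurons, 5 were higher, 4 lower, 6 not called and 4 filtered out, and the median was 0.30. Calca (ENSMUSG00000030669, chromosome 7 from 114631478 to 114636357), which encodes calcitonin gene-related peptide of pain fibres, had 1.21, 7.21, 0.645 and 1.90 CPM in olfactory nerve and 189, 178 and 238 CPM in trigeminal nerve, at -6.20 ± 0.60 (SE, adjusted p = 1.03e-06), and Sncg, gamma-synuclein of sensory axons, 4.29, 1.94, 3.16 and 1.17 CPM against 76.3, 41.8 and 58.5 CPM, at -4.48 ± 0.40 (SE, adjusted p = 4.84e-07). Both genes were separated in every library. Tac1, substance P, was lower as well (-1.81, adjusted p = 0.0464), but it lost its call when olfactory nerve replicate 1, 2 or 3 or any trigeminal nerve replicate was left out, with adjusted p of 0.0595 to 0.109, and in 5 settings that kept every library, DESeq2 among them (up to 0.117). Without any one of these 6 libraries 2 of the 19 genes were called lower. Higher in olfactory nerve were, among others, Prph, an intermediate filament of peripheral neurons (4.08, adjusted p = 1.09e-05), Scn9a, a sodium channel (4.17, adjusted p = 2.36e-05), and Runx1, a transcription factor (3.15, adjusted p = 1.8e-07). Earlier work cited by the study found Runx1 in OECs of the inner ONL. Which cells gave its level here was not tested. The mechanosensory channel gene Piezo2 was not called, with 28.7 to 37.7 CPM and 24.3 to 31.6 CPM (0.30, adjusted p = 0.467).

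Genes of olfactory progenitors and migrating neurons were higher for 11 of 18, lower for 0, not called for 5 and filtered out for 2, with a median of 5.0, or 4.30 with genes at 0 in trigeminal nerve set to their bound. Fezf1 (ENSMUSG00000029697, chromosome 6 from 23245044 to 23248362), a repressor needed for olfactory neuron identity, had 78.0, 27.4, 61.0 and 101 CPM against 0, 0.274 and 0.104 CPM, at 8.97 ± 0.81 (SE, adjusted p = 5.01e-07). Neurod1, a proneural factor of late progenitors, had 65.6, 19.7, 49.7 and 95.9 CPM against 0, 0.445 and 0.346 CPM, at 7.74 ± 0.95 (SE, adjusted p = 1.03e-05). Replicate 2 was the lowest olfactory nerve library in both. Neurog1, a proneural factor of neuronal precursors, was higher, with 30.3, 9.87, 19.2 and 39.5 CPM against 0, 0.205 and 0.0692 CPM (adjusted p = 3.24e-05), the trigeminal mean being under the level of 3 counts. Gnrh1, expressed by the neuroendocrine cells that migrate along the olfactory nerve, varied most, with 128, 6.18, 126 and 15.5 CPM in olfactory nerve against 0.448, 0.274 and 0.727 CPM, at 7.14 ± 1.74 (SE, adjusted p = 0.00519), though not called in a fit of all 31 libraries (adjusted p = 0.0775). Replicates 1 and 3 were several times replicates 2 and 4, and all 4 were above trigeminal nerve.

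Olfactory epithelium and gland genes were measured as markers of tissue next to the olfactory nerve, and 19 of 25 were higher, 0 lower, 2 not called and 4 filtered out, with a median of 5.23. Summed over the list, olfactory nerve libraries had 1005, 482, 563 and 855 CPM and trigeminal nerve libraries 132, 119.97 and 127 CPM, and every olfactory nerve library was higher. Replicate 2 was lowest and replicate 1 highest. Krt8, a keratin of simple epithelia, had 174, 47.9, 50.5 and 76.5 CPM against 0.138, 1.40 and 0.242 CPM, at 7.18 ± 0.69 (SE, adjusted p = 9.68e-07), and Epcam, an epithelial adhesion molecule, 82.9, 25.6, 44.9 and 72.1 CPM against 1.03, 1.57 and 1.87 CPM, at 5.23 ± 0.49 (SE, adjusted p = 6.65e-07). Krt5, of horizontal basal cells, had 14.9, 1.88, 12.3 and 19.5 CPM against 0, 0.103 and 0.242 CPM (adjusted p = 0.000136), and Cyp2g1, a P450 enzyme of sustentacular cells and Bowman's glands, 11.2, 38.9, 10.5 and 28.1 CPM against 0, 0.0342 and 0 CPM (adjusted p = 4.63e-07). The neuronal and progenitor genes above moved in the same direction as these markers, and the part of adjacent epithelium in their values was not tested.

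Of 37 genes of neurotrophic and glial growth factor signalling, 10 were lower in olfactory nerve, 1 higher, 21 not called and 5 filtered out, with a median of -0.59. Igf1, insulin-like growth factor 1, had 138, 241, 174 and 174 CPM in olfactory nerve and 1918, 2276 and 1775 CPM in trigeminal nerve, at -3.45 ± 0.20 (SE, adjusted p = 5.61e-09). Fgf1, a fibroblast growth factor of sensory and motor axons, had 11.7, 14.0, 8.26 and 11.2 CPM and 50.8, 54.3 and 55.2 CPM, at -2.24 ± 0.33 (SE, adjusted p = 6.72e-05), and Pdgfa, a platelet-derived growth factor chain, -1.80 (adjusted p = 3.3e-06). All olfactory nerve libraries were below all trigeminal nerve libraries in these 3 genes. The receptors Ngfr, Gfra3, Ntrk3 and Erbb3 made up a further part of the lower genes and are described above. The gene higher in olfactory nerve was Nrg1 (ENSMUSG00000062991, chromosome 8 from 31814551 to 32884029), neuregulin 1, with 12.2, 11.9, 12.3 and 21.9 CPM against 0.310, 2.26 and 1.42 CPM, at 3.45 ± 0.64 (SE, adjusted p = 0.000589), where replicate 4 was the highest library. Nrg1 is known both from axons and from epithelia. Of the other ligands, Bdnf (1.26, adjusted p = 0.135) and Ntf3 (0.78, adjusted p = 0.395) were not called, nor was the receptor Gfra1 (-0.57, adjusted p = 0.113). Ntrk2, the receptor for brain-derived neurotrophic factor, overlapped between the nerves, with 219 to 296 CPM and 226 to 295 CPM (-0.092, adjusted p = 0.735), and its sign turned with total-count scaling (0.097).

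Axon guidance ligands went in both directions, with 8 of 31 higher, 7 lower, 15 not called and 1 absent from the file, and a median of 0.074. Ntn1, netrin 1, had 1.81, 1.88, 1.68 and 3.52 CPM in olfactory nerve and 32.4, 33.1 and 31.1 CPM in trigeminal nerve, at -3.85 ± 0.35 (SE, adjusted p = 4.94e-07), and Slit3, a ligand of Robo receptors, 1.99, 4.18, 3.49 and 2.79 CPM and 22.5, 40.9 and 37.2 CPM, at -3.43 ± 0.50 (SE, adjusted p = 5.62e-05). Both genes were low in olfactory nerve in every library. Efnb1, ephrin B1, was lower at -2.13 (adjusted p = 2.58e-06), and Sema6d, a transmembrane semaphorin, at -1.68 (adjusted p = 6.06e-06). In the other direction, Sema3a (ENSMUSG00000028883, chromosome 5 from 13125414 to 13602565), a secreted repellent of sensory axons, had 84.4, 71.2, 137 and 126 CPM in olfactory nerve and 6.37, 9.96 and 7.09 CPM in trigeminal nerve, at 3.74 ± 0.43 (SE, adjusted p = 5.75e-06). Sema3d had 56.3, 53.1, 55.0 and 47.6 CPM and 14.7, 22.3 and 21.2 CPM, at 1.45 ± 0.23 (SE, adjusted p = 0.000164). No library of one nerve overlapped the other in Sema3a, Sema3d or, in the opposite direction, Sema3b. Slit1 was higher at 3.61 (adjusted p = 0.00885) but stayed under 4 CPM in every library.

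**Figure D4:**
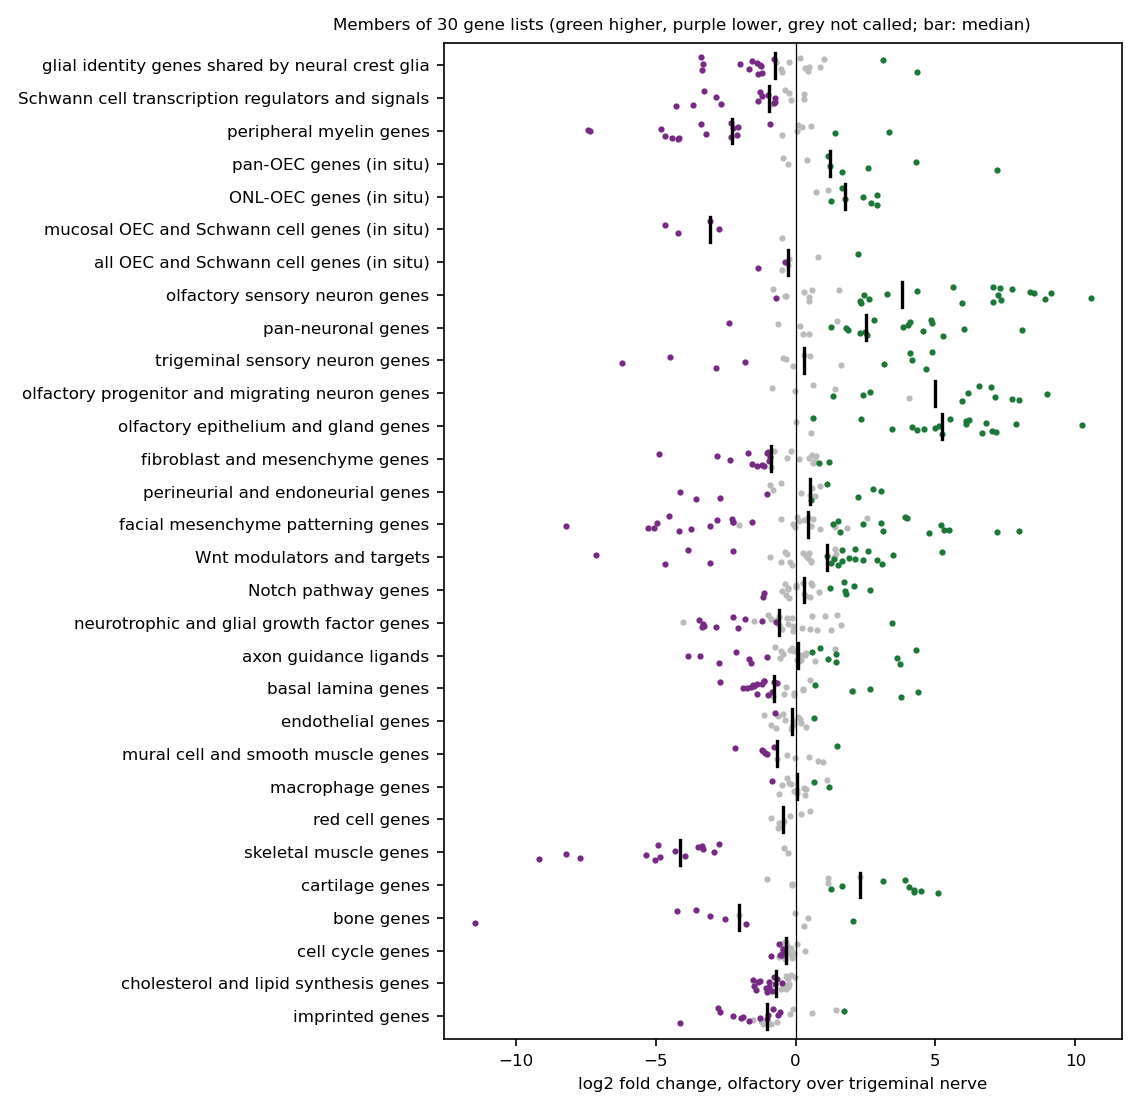
Log2 fold change of olfactory over trigeminal nerve for the tested members of the 30 gene lists, 1 point per gene (green, called higher; purple, called lower; grey, not called), with a black bar at the median of each list. Lists of neurons and epithelium lie to the right, and those of myelin and skeletal muscle to the left.

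Wnt signalling genes were higher for 15 of 36, lower for 5, not called for 15 and filtered out for 1, with a median of 1.12. Targets of the pathway were among the higher genes. Lef1, a nuclear effector that is also a target, had 12.6, 13.4, 10.9 and 10.4 CPM in olfactory nerve and 2.03, 3.87 and 2.28 CPM in trigeminal nerve, at 2.11 ± 0.23 (SE, adjusted p = 3.89e-06), and Axin2, a feedback inhibitor, 7.07, 5.21, 8.13 and 6.64 CPM and 2.82, 2.39 and 2.59 CPM, at 1.37 ± 0.27 (SE, adjusted p = 0.000862). In a fit of all 31 libraries Axin2 was not called (adjusted p = 0.0723), nor was Sfrp1 (0.0655). Apcdd1, another inhibitor, had 2.14 (adjusted p = 0.000181). The secreted inhibitors Sfrp1 (337 to 413 against 119.8 to 145 CPM) and Sfrp4 (76.9 to 286 against 15.4 to 28.5 CPM) were also higher, at 1.53 (adjusted p = 0.00913) and 3.07 (adjusted p = 6.29e-05). Of the ligand genes, 3 were called higher (Wnt7a, Wnt7b and Wnt16), all under 3 CPM in every library and with overlap between the nerves, and the 3 called lower were more abundant. Wnt2 (ENSMUSG00000010797, chromosome 6 from 17988940 to 18030585) had 0.242, 0.485, 0.387 and 0.726 CPM in olfactory nerve and 54.0, 67.8 and 78.5 CPM in trigeminal nerve, at -7.15 ± 0.61 (SE, adjusted p = 2.54e-07), and Wnt11 1.87, 1.21, 1.42 and 1.40 CPM and 12.0, 24.1 and 27.7 CPM, at -3.84 ± 0.40 (SE, adjusted p = 1.96e-06). Wnt9a was lower at -2.24 (adjusted p = 0.00408). No library of one nerve overlapped the other in the lower ligand genes. The remaining lower genes were Sfrp5 and Sostdc1, described above. In a fit of all 31 libraries 8 of the 36 genes were called higher.

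Of 24 Notch pathway genes, 6 were higher, 2 lower, 15 not called and 1 filtered out, with a median of 0.31. The lower genes were the receptor Notch3 (-1.17, adjusted p = 0.00167), which mural cells express, and the ligand Jag1 (-1.15, adjusted p = 0.0197), which was not called with total-count scaling (-0.94, adjusted p = 0.0629). Mfng, a glycosyltransferase that modifies Notch receptors, had 95.2, 45.7, 84.8 and 121 CPM against 15.5, 22.4 and 22.7 CPM, at 2.1 ± 0.29 (SE, adjusted p = 3.64e-05), and Hes6, which progenitors of neurons express, 2.65 ± 0.28 (SE, adjusted p = 2.55e-06). Hey1 was not called, with 77.4 to 128 CPM and 93.5 to 149.7 CPM (-0.27, adjusted p = 0.292).

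The connective tissue of the nerve was next compared. Of 25 fibroblast and mesenchyme genes, 12 were lower in olfactory nerve, 2 higher, 10 not called and 1 filtered out, with a median of -0.89, and the sum of the list was lower in every olfactory nerve library, as given above. Mfap5, a microfibril protein, had 37.7, 25.4, 26.6 and 16.3 CPM against 975, 668 and 721 CPM, at -4.89 ± 0.41 (SE, adjusted p = 2.09e-07). Fbn1, fibrillin 1, was lower at -2.33 ± 0.26 (SE, adjusted p = 3.92e-06), Col6a1 at -1.57 (adjusted p = 5.66e-05) and Col1a2, of fibrillar collagen, at -1.39 (adjusted p = 0.00114). Lum, a collagen-binding proteoglycan, was higher, with 806, 775, 728 and 550.4 CPM against 343, 283 and 312 CPM, at 1.19 ± 0.28 (SE, adjusted p = 0.00445). Twist1, a mesenchymal transcription factor, was not called (0.47, adjusted p = 0.476).

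Of 17 perineurial and endoneurial genes, 5 were higher, 4 lower and 8 not called, with a median of 0.53. Dlk1 (ENSMUSG00000040856, chromosome 12 from 109452823 to 109463336), a transmembrane protein of endoneurial fibroblasts and other mesenchyme, had 67.8, 198, 107 and 108 CPM in olfactory nerve and 1683, 2175 and 2455 CPM in trigeminal nerve, at -4.13 ± 0.33 (SE, adjusted p = 1.52e-07). Cldn1, the claudin of the perineurial barrier, had 30.1, 53.5, 26.0 and 36.0 CPM and 511, 422 and 346 CPM, at -3.55 ± 0.24 (SE, adjusted p = 2.66e-08), and Itgb4, a laminin receptor subunit, 8.28, 9.45, 13.9 and 7.26 CPM and 57.6, 68.4 and 62.8 CPM, at -2.70 ± 0.24 (SE, adjusted p = 4.63e-07). The 3 genes were separated in all libraries. Apod, a lipocalin of endoneurial fibroblasts, was higher in olfactory nerve, with 1680.4, 495, 1127 and 666 CPM against 162, 147 and 127 CPM, at 2.77 ± 0.32 (SE, adjusted p = 6.48e-06).

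Basal lamina genes were lower for 15 of 29, higher for 5 and not called for 9, with a median of -0.79. Nid1, nidogen, had 422, 443, 629 and 406 CPM in olfactory nerve and 1283, 1626 and 1353 CPM in trigeminal nerve, at -1.58 ± 0.22 (SE, adjusted p = 3.91e-05), and Lamb1, a laminin chain, 316, 434, 449 and 299 CPM and 939.7, 1022 and 981 CPM, at -1.39 ± 0.18 (SE, adjusted p = 2.11e-05). Hspg2, perlecan, was lower at -1.52 (adjusted p = 0.000165), Lama4 at -0.97 (adjusted p = 0.000211), the collagen chain gene Col4a5 at -1.74 (adjusted p = 8.02e-05) and Dag1, dystroglycan, at -1.21 (adjusted p = 0.000167). The chains Lama1 and Lamb3 were higher, Lama1 with 44.1, 13.9, 44.7 and 26.3 CPM against 3.06, 2.67 and 1.35 CPM (3.77 ± 0.37, SE, adjusted p = 1.33e-06) and Lamb3 with 6.95, 1.88, 3.81 and 8.82 CPM against 0.517, 0.0684 and 0.173 CPM (4.37 ± 0.73, SE, adjusted p = 0.000232). Agrn, agrin, was higher at 0.71 (adjusted p = 0.00183). Epithelia also make Lamb3, and the epithelial markers were higher in the same libraries. Col4a1 overlapped, with 1279 to 2908 CPM and 1521 to 2026 CPM (0.28, adjusted p = 0.505). Higher basal lamina genes numbered 3 without trigeminal nerve replicate 1.

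Imprinted genes, many of which regulate embryonic growth, were lower for 13 of 24, higher for 1, not called for 9 and absent from the file for 1, with a median of -1.01. Beside Dlk1, Plagl1, a zinc finger factor, had 159, 289, 226 and 224 CPM in olfactory nerve and 787, 913 and 787 CPM in trigeminal nerve, at -1.88 ± 0.37 (SE, adjusted p = 0.00089). Zim1 had 13.9, 43.4, 20.8 and 30.8 CPM and 139, 216 and 176 CPM, at -2.70 ± 0.47 (SE, adjusted p = 0.000313), and Cdkn1c, an inhibitor of cyclin-dependent kinases, -2.22 (adjusted p = 0.00086). Mest was lower at -1.95 (adjusted p = 4.31e-05), Peg3 at -1.01 (adjusted p = 0.00382), and the noncoding RNA gene Rian at -1.66 (adjusted p = 0.000635). The one higher gene, Nnat, neuronatin, had 68.0, 179, 88.6 and 130.4 CPM against 38, 32.7 and 35.4 CPM, at 1.72 ± 0.26 (SE, adjusted p = 9.37e-05). H19, which shares an imprinted domain with Igf2, was not called (-1.15, adjusted p = 0.0909). It was called lower with the 7 nerve libraries alone (-1.16, adjusted p = 0.00183) and with no filter (-1.21, 0.0234). The same held with the replicate number as a block (-1.45, 0.0184), but that block does not stand for the embryo. Igf2, with 1011, 1379, 957 and 935 CPM against 1957, 2102 and 1891 CPM at -0.89 (adjusted p = 0.0626), was called lower without olfactory nerve replicate 2 (-1.03, adjusted p = 0.0489) and in 4 settings that kept every library, the block among them (-1.01, adjusted p = 0.0183).

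Genes of cholesterol and lipid synthesis were lower for 14 of 24, higher for 0 and not called for 10, with a median of -0.70. Of the cholesterol pathway, Msmo1, a sterol oxidase, had 87.0, 113, 65.0 and 79.4 CPM in olfactory nerve and 322, 193 and 209 CPM in trigeminal nerve, at -1.49 ± 0.21 (SE, adjusted p = 5.34e-05). Idi1 was lower at -1.42 (adjusted p = 3.63e-05) and Sqle, squalene epoxidase, at -1.06 (adjusted p = 0.000127). Insig1, a target and brake of the sterol sensor, was lower at -1.53 (adjusted p = 4.46e-05). The size was at least 1 on the log2 scale in 7 of the 14.

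Of 25 cell cycle genes, 6 were lower, 0 higher and 19 not called, with a median of -0.34. Mki67, the proliferation marker, had 137, 171, 212 and 159 CPM and 180.4, 233 and 245 CPM, at -0.37 ± 0.20 (SE, adjusted p = 0.19), with overlap. The 6 calls were 0 with total-count scaling, 3 without olfactory nerve replicate 2, 2 without olfactory nerve replicate 4 and 1 without trigeminal nerve replicate 1.

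Transcription factor genes that pattern the mesenchyme of the face differed in both directions and by large amounts. Of 47 such genes, 14 were higher in olfactory nerve, 13 lower, 14 not called and 6 filtered out, with a median of 0.44. Pax9 (ENSMUSG00000001497, chromosome 12 from 56691767 to 56712822), of nasal and oral mesenchyme, had 102, 42.8, 121 and 86.3 CPM in olfactory nerve and 0.0689, 0.821 and 0.138 CPM in trigeminal nerve, at 7.97 ± 0.73 (SE, adjusted p = 5.35e-07). Tfap2b had 242, 336, 302 and 303 CPM and 6.99, 8.45 and 6.82 CPM, at 5.32 ± 0.41 (SE, adjusted p = 1.04e-07), and Alx1, a homeobox gene of the frontonasal region, 138, 250.4, 192 and 202 CPM and 8.26, 10.1 and 3.32 CPM, at 4.76 ± 0.62 (SE, adjusted p = 2.15e-05). All 3 were separated in every library. Alx4 (1.58, adjusted p = 3.37e-05), Six2 (2.40, adjusted p = 0.000614) and Pitx1 (5.20, adjusted p = 0.000518) were higher as well.

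Large differences were found among the lower genes of this list as well. Lhx8, a LIM homeobox gene of the first pharyngeal arch, had 0, 0.545, 0 and 0 CPM in olfactory nerve and 42.1, 44.8 and 40.4 CPM in trigeminal nerve (adjusted p = 1.07e-05), and its counts in olfactory nerve came from replicate 2 alone. DESeq2 gave Lhx8 an adjusted p of 0.0848. Its relative Lhx6 was lower at -3.06 (adjusted p = 0.001). Msx1, a homeobox gene of palate and tooth mesenchyme, had 19.9, 10.3, 15.8 and 9.54 CPM and 118, 212 and 223 CPM, at -3.73 ± 0.39 (SE, adjusted p = 2.16e-06), and Pax3, a crest and muscle progenitor factor, 0.363, 0.969, 1.42 and 1.40 CPM and 17.5, 17.3 and 21.5 CPM, at -4.17 ± 0.48 (SE, adjusted p = 1.76e-05). Dlx1 was lower at -5.27 (adjusted p = 1.92e-05). The related zinc finger genes Osr1 and Osr2 were opposite, as Osr1 had 2.48, 10.4, 4.52 and 5.75 CPM against 141, 211 and 192 CPM, at -4.97 ± 0.57 (SE, adjusted p = 6.01e-06), and Osr2 132, 54.1, 156 and 121 CPM against 13.4, 13.7 and 14.4 CPM, at 3.06 ± 0.32 (SE, adjusted p = 2.11e-06). No library overlapped in either gene.

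Markers of other tissues were measured to show what the pieces held. Of 20 skeletal muscle genes, 14 were lower in olfactory nerve, 0 higher, 2 not called and 4 filtered out, with a median of -4.12, and their sum was 38.7, 28.4, 28.1 and 36.2 CPM against 269, 383 and 299 CPM. Actc1, cardiac alpha-actin of embryonic muscle, had 0, 0.666, 0.581 and 0.0558 CPM against 59.9, 84.8 and 59.5 CPM, at -7.71 ± 0.84 (SE, adjusted p = 3.18e-06), and Acta1, skeletal alpha-actin, 3.32, 1.57, 1.42 and 1.73 CPM against 48.5, 74.0 and 49.7 CPM, at -4.83 ± 0.43 (SE, adjusted p = 4.37e-07). Myog, myogenin, had 0, 0.0606, 0 and 0 CPM against 6.16, 13.9 and 17.2 CPM (adjusted p = 5.13e-05). Bone genes were lower for 6 of 14, higher for 1, not called for 4 and filtered out for 3, and summed to 143, 119, 110.04 and 128 CPM against 1099, 349.8 and 1081 CPM. Ibsp, bone sialoprotein, had 0, 0, 0.710 and 0 CPM in olfactory nerve and 759, 58.0 and 647 CPM in trigeminal nerve, where replicate 2 was far below the others (adjusted p = 1.76e-05). No fold change is given, since the olfactory nerve mean was under the level of 3 counts. Alpl, alkaline phosphatase, was lower at -2.54 (adjusted p = 5.17e-07), and Spp1, osteopontin, higher at 2.05 (adjusted p = 0.0014).

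Cartilage genes were higher for 9 of 15, lower for 0 and not called for 6, and summed to 1539, 7798, 3148 and 3424 CPM in olfactory nerve and 1742, 1794 and 1685 CPM in trigeminal nerve. The olfactory range spanned the trigeminal one, with replicate 1 below and the others above. Col2a1, the main collagen of cartilage, had 620.3, 3713, 1508 and 1533 CPM against 47.6, 63.4 and 51.6 CPM, at 5.09 ± 0.54 (SE, adjusted p = 2.49e-06), and Acan, aggrecan, 32.7, 197, 66.0 and 86.6 CPM against 3.99, 6.16 and 4.98 CPM, at 4.24 ± 0.78 (SE, adjusted p = 0.000523). Olfactory nerve replicate 2 was highest in both, and it was also the library with the highest Sox10, Fabp7 and Sox9 and the lowest epithelial sum. The part of cartilage in the levels of Sox9 was not tested.

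Endothelial, macrophage and red cell genes were read against the 26.9% of all genes tested that were called in either direction. Endothelial genes were called for 2 of 17 (1 higher, 1 lower), with a median of -0.14, macrophage genes for 3 of 15 (2 higher, 1 lower), with 0.066, and red cell genes for 0 of 11, of which 8 were tested, with -0.45. The red cell list summed to 9675, 2672, 3531 and 3178 CPM in olfactory nerve, where replicate 1 was the highest, and to 9869.5, 5082 and 6079 CPM in trigeminal nerve, and 4 of its genes were called lower by edgeR without that replicate. Of 13 mural cell genes, 6 were lower, 1 higher and 6 not called, with a median of -0.67. Mcam, an adhesion molecule of pericytes and Schwann cells, was lower at -1.19 (adjusted p = 1.54e-05), Higd1b, a pericyte gene, was higher at 1.49 (adjusted p = 0.00211), and Acta2, smooth muscle actin, ranged from 198 to 2008 CPM in olfactory nerve and from 391 to 725 CPM in trigeminal nerve (1.00, adjusted p = 0.433).

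**Figure D5:**
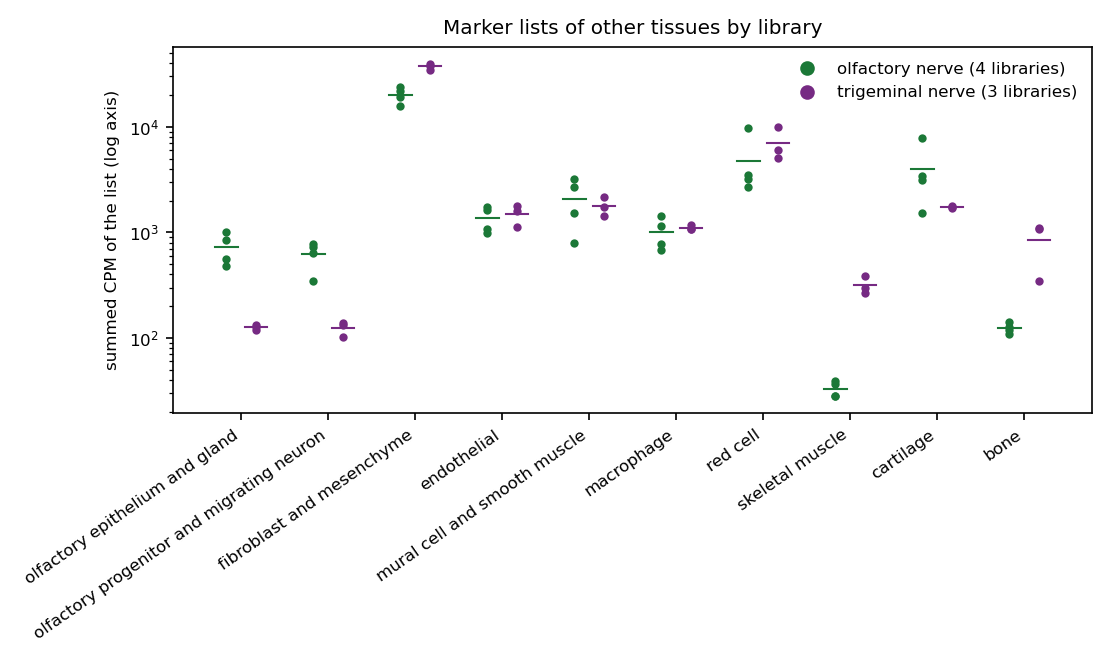
Sum of CPM over each of 10 marker lists of other tissues (log axis), 1 point per library (green, 4 olfactory nerve; purple, 3 trigeminal nerve) with a bar at the mean. Epithelial and progenitor lists are higher in every olfactory nerve library, muscle, bone and fibroblast lists higher in every trigeminal nerve library, and vessel and blood lists overlap.

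The remaining genes with the largest changes, among 1520 genes eligible by level and separation, were in none of the lists. Higher in olfactory nerve were Inmt, a methyltransferase, with 708, 156, 519.6 and 327 CPM against 0.344, 2.33 and 1.42 CPM (8.29 ± 0.68, SE, adjusted p = 1.74e-07), Cbr2, a carbonyl reductase (7.22, adjusted p = 6.03e-08), Acsm4, an acyl-CoA synthetase of the olfactory epithelium (7.63, adjusted p = 7.4e-06), and Sult1e1, estrogen sulfotransferase (7.45, adjusted p = 1.96e-05). Slc27a2, a fatty acid transport protein (7.30, adjusted p = 2.05e-06), Ap1m2, an adaptor subunit of epithelial sorting (6.83, adjusted p = 7.65e-06), and Fstl5, a secreted protein of the follistatin family (6.82, adjusted p = 2.91e-06), followed. Inmt was highest in replicate 1 and lowest in replicate 2, the order of the epithelial sum at those 2 ends. Lower in olfactory nerve were Thbs4, a thrombospondin of tendon and muscle, with 1.27, 0.787, 1.87 and 0.949 CPM against 81.5, 71.9 and 89.3 CPM (-6.05 ± 0.29, SE, adjusted p = 1.27e-09), Fabp4, a fatty acid-binding protein of fat and capillary cells (-5.05, adjusted p = 2.83e-05), and Entpd2, an enzyme that breaks down extracellular ATP (-5.05, adjusted p = 3.48e-09). Meox2, a mesodermal homeobox gene, had 6.71, 9.45, 7.03 and 6.92 CPM against 223, 206 and 180.1 CPM (-4.75 ± 0.30, SE, adjusted p = 1.29e-08). Prss12, a protease that cleaves agrin, had 10.6, 15.7, 10.3 and 11.3 CPM against 248, 329 and 280.4 CPM (-4.57 ± 0.41, SE, adjusted p = 4.16e-07). The absence of overlap between libraries was part of the rule that chose these genes.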

How the data were processed

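RNA-seq was performed on nerve tissue excised by laser microdissection from frozen sections of E16.5 embryos, and per the labels reads were aligned to mm10 with TopHat2 2.1.0 and assigned to genes with HTSeq after FastQC, while the authors tested counts with DESeq2. The deposited values were raw counts per Ensembl gene for 31 libraries, of which 1 row without a gene identifier was not used. The amplification and tagmentation protocol does not mark strand, so reads of overlapping or antisense genes cannot be told apart. Of 186 genes given with values, Adcy3, Cdkn1c, Entpd2, Fbn1, Mest and Pdgfa share over 20% of their exon bases with another gene.

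Counts of the 15 E16.5 libraries (olfactory nerve, trigeminal nerve, outer and inner ONL) were filtered with filterByExpr, scaled by TMM and fitted in edgeR 4.0.16 (R 4.3.3) with glmQLFit, and olfactory nerve was contrasted with trigeminal nerve with glmQLFTest at a Benjamini-Hochberg adjusted p under 0.05 over 17800 genes, 4 groups sharing 1 estimate of spread with 11 residual degrees of freedom. Symbols and coordinates came from a GRCm38 annotation. Exact permutation tests of levels relative to Sox10 used log2(CPM + 0.5). Alternatives were DESeq2 1.42.0, total-count and upper-quartile scaling, filters, a fold threshold, the libraries in the fit, a replicate block, thinning of trigeminal nerve counts and leaving out each library.

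The comparison and the 30 gene lists (577 genes in the file) were chosen with earlier results of these data known. Genes were named from the lists by size of difference, abundance or role, beside the 15 largest rises and 15 largest falls among called genes of at least 50 CPM without overlap between libraries. Some members of the lists are counted but not reported here by name.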

Additional observations from a re-analysis of the deposited data

Results flagged for a closer look

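Of 216 sets of 4 olfactory nerve values (186 genes and 30 list sums), 19 had 1 library whose gap to the nearest other, divided by the range, was above Dixon's 95% critical value. The rate of about 1 in 20 by chance holds for independent, normally distributed values. A gene at 0 in all other libraries is always flagged, as were Cldn19, Fa2h, Ibsp, Lhx8 and Myog. The sets are also not independent, so the number flagged cannot be compared with that rate. Replicate 2 was the highest library for Ngfr (15.3 CPM), S100b (145 CPM), Ugt8a (9.09 CPM), Ptn (2516 CPM), Igf2 (1379 CPM) and Meox2 (9.45 CPM), for the sum of the pan-OEC genes (4078 CPM), and for Cldn19 (0.242 CPM), Lhx8 (0.545 CPM) and Myog (0.0606 CPM), which were at 0 in the other olfactory nerve libraries. Replicate 1 stood apart for Acta1 (3.32 CPM), for the sum of the red cell genes (9675 CPM) and for Fa2h (0.0604 CPM), listed at 0 in the others. Replicate 3 was highest for Nid1 (629 CPM), Lama4 (548 CPM), Nefm (1.36 CPM) and Ibsp (0.710 CPM). Replicate 4 was highest for Nrg1 (21.9 CPM) and Ntn1 (3.52 CPM). The trigeminal nerve group, with 3 libraries, was not examined in this way.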

How the results depend on the processing

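The number of called genes was 4788 and ranged from 3447 (all 31 libraries in 1 fit) to 5199 (DESeq2), and from 3790 to 4395 when 1 library was left out. Genes called lower fell from 2086 to 1352 with total-count scaling, which moved the median of all genes, and to 1082 with a log2 fold change of at least 1 required. The number of glial genes relative to Sox10 ran from 38 to 50 (higher, 43 in the report) and from 21 to 25 (lower, 24). Of 160 called genes given with values, 160 kept their direction under every setting and 141 also kept their call, the fold threshold aside. The fit of all 31 libraries ended 17 calls, those of Adgrg6, Axin2, Fyn, Gnrh1, Hey2, Higd1b, Lum, Ncam2, Nnat, Npy, Pllp, Pou3f1, Prss56, Sfrp1, Spp1, Tac1 and Wif1 (adjusted p 0.0655 to 0.522), and in it Notch genes called higher numbered 3. That fit included earlier-stage libraries, some of which did not match their labels in an earlier analysis. In it Npy had a log2 fold change of 2.63 ± 1.49 (SE), against 2.69 ± 0.36 in the main fit. Hey2 had 1.16 ± 0.68 (SE), against 1.22 ± 0.22. The part of those libraries in the lost calls was not tested. Sox9 was called in 6 settings that kept all libraries, Igf2 in 4 and H19 in 3. Over all settings, the fold threshold included, the number of list members called higher ran from 3 to 7 for genes of the olfactory nerve layer glia (7 in the report), 2 to 6 for shared glial identity genes (2), 8 to 18 for Wnt genes (15), 3 to 9 for Notch genes (6), 2 to 8 for perineurial genes (5), 3 to 6 for basal lamina genes (5), 3 to 6 for trigeminal neuron genes (5), 0 to 5 for fibroblast genes (2), 1 to 4 for growth factor genes (1) and 0 to 4 for macrophage genes (2). The number called lower ran from 7 to 17 for cholesterol and lipid genes (14), 0 to 7 for cell cycle genes (6), 3 to 7 for bone genes (6), 3 to 6 for mural cell genes (6), 2 to 5 for trigeminal neuron genes (4), 0 to 4 for red cell genes (0) and 0 to 3 for endothelial genes (1). Ntrk2 reversed with total-count scaling (0.097), and Vtn and Ptgds without olfactory nerve replicate 2, with ranges of -0.87 to 1.57 and -0.072 to 1.07 over the libraries left out. The cause was not tested. Replicate numbers did not pair the libraries, since deviations of same-numbered libraries correlated across 12084 genes at 0.0995, -0.283 and -0.136, and 0.454 was the highest value of any pair, that of olfactory nerve replicate 3 and trigeminal nerve replicate 2, which alone had Xist at over 3 counts. Numbers 2 and 3 therefore join libraries that differ in Xist, so that the block does not stand for the embryo, and no fit with the embryo as a block was made. With the replicate number as a block, 4561 genes were called (2508 higher, 2053 lower). Genes at under 0.181 CPM in olfactory nerve rest on fewer than 3 counts.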
